A study of Homo sapiens with 8 samples.

Results

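Metallothioneins are small, cysteine-rich proteins that hold zinc and copper and also take up cadmium and other toxic metals. Their genes are switched on by zinc through MTF1, a transcription factor that reads metal response elements (MREs) in their promoters, and also by oxidative stress, inflammation and glucocorticoids. Silencing of several of these genes by promoter methylation is known from tumours. The family was followed here in THP-1, an established human acute monocytic leukemia line, through the 8 genes MT1A, MT1E, MT1F, MT1G, MT1H, MT1M, MT1X and MT2A, chosen by their symbols among the 60664 genes of the deposited expression table.

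There were 4 groups of 2 libraries: parental cells with DMSO, parental cells with DAC, DAC-resistant cells with DMSO and DAC-resistant cells with DAC. DAC (decitabine) is a nucleoside drug that enters DNA and traps the enzymes which methylate it, so that methylation is lost as cells divide. It was given at 1 µM for 6 days. Every library is labelled THP-1 with genotype WT, and the replicates are labelled as biological. The DAC-resistant line came, according to the study's methods, from survivors of repeated pulses of DAC, so it is a selected population that had met the drug before any of these treatments. The comparisons ask what DAC did to each line, and how the lines differed with and without it.

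Values were FPKM, reads scaled by gene length and library total, as deposited by the authors after division by 1000. Reads per gene were recovered from these values, mainly by annotated exon length, and their totals, 28659508 to 33370949 gene reads per library, are estimates. Of the 8 genes, 5 (MT2A, MT1E, MT1X, MT1F and MT1G) reached 1 FPKM in at least 2 libraries and were tested, and 3 (MT1A, MT1H and MT1M) did not. MT2A, MT1E, MT1X and MT1F were at 1 FPKM or more in all 8 libraries. MT1G passed only through the parental DAC libraries, which fixes the side on which that group lies, so its values are given as a description and counts are taken over the other 4 genes. Differences were tested with limma on log2(FPKM + 1) over 14899 genes, a scale on which the change of a gene near 1 FPKM is understated. A gene is called raised or lowered where its unadjusted p is 0.01 or less and its log2 fold change is 1 or more in size (2-fold), and Benjamini-Hochberg adjusted p-values over all genes tested are given beside it. With 2 libraries against 2, an exact permutation test cannot go below 0.333, so the p-values lean on a spread pooled over genes by limma.

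Markers of the labelled line were present, with 8 to 10 of 10 monocytic markers at 1 FPKM or more in both libraries of each group. Their summed level was 242 to 243 FPKM in parental cells with DMSO, 337 to 340 with DAC, 143 to 149 in DAC-resistant cells with DMSO and 157 to 160 with DAC. Of the markers of other cell types, those of fibroblasts (COL1A1, COL1A2 and PDGFRB) were lowest in sum in parental cells with DMSO, as MT2A, MT1E, MT1X and MT1F were. Their sum was 0.755 to 0.839 FPKM in parental cells with DMSO and 12.4 to 12.8 with DAC. In the DAC-resistant line it was 7.00 to 7.02 with DMSO and 5.11 to 5.50 with DAC. Most of the sum in DAC-resistant cells with DMSO was COL1A1, with group means of 6.13 FPKM for COL1A1, 0.878 for PDGFRB and 0.00154 for COL1A2. COL1A2 was at 0.00152 in parental cells with DMSO. The part of these markers in the results was not tested. T cell markers stayed at or under 0.727 FPKM in sum, and CD3D and CD2 were listed at 0 in all libraries of parental cells with DMSO and of DAC-resistant cells. Summed levels were 3.10 to 5.89 FPKM for B or plasma cell markers, 1.99 to 6.97 for erythroid markers and 0.0645 to 1.92 for epithelial markers, the last highest in parental cells with DAC. In bulk RNA, fewer cells that express a gene and less RNA per cell cannot be told apart.

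The 8 genes lie together on chromosome 16 (GRCh38), within 75.6 kb, 7 on the plus strand and MT1G on the minus strand. In their order along the chromosome these are MT2A (ENSG00000125148, 56608584 to 56609497), MT1E (ENSG00000169715, 56625475 to 56627112), MT1M (ENSG00000205364, 56632659 to 56633981) and MT1A (ENSG00000205362, 56638666 to 56640087). Further along follow MT1F (ENSG00000198417, 56657731 to 56660698), MT1G (ENSG00000125144, 56666730 to 56668065), MT1H (ENSG00000205358, 56669814 to 56671129) and MT1X (ENSG00000187193, 56682470 to 56684196). Reads were counted over annotated exons, which sum to between 396 bases for MT1A and 1852 bases for MT1F, and levels are set side by side between genes only as FPKM, which is per length.

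Promoters are shown because MREs are how metal reaches these genes. Those of MT2A, MT1X and MT1H are given because they were the members with a sequence in the promoter set used. The 3 genes range from a high level to almost none. Each is the 250 bases before the start of the gene from RefSeq (GRCh38.p14, plus strand), MT2A at chr16:56608334-56608583, MT1X at chr16:56682220-56682469 and MT1H at chr16:56669564-56669813. Capitals mark the MRE core, searched as TGCACNC or TGCGCNC on both strands, so that a core on the minus strand reads as its reverse complement.
MT2A: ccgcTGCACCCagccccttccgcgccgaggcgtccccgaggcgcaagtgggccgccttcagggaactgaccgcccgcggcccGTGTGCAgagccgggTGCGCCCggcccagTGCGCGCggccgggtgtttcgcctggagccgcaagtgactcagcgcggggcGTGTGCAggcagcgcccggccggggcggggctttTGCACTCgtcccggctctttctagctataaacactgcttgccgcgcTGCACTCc
MT1X: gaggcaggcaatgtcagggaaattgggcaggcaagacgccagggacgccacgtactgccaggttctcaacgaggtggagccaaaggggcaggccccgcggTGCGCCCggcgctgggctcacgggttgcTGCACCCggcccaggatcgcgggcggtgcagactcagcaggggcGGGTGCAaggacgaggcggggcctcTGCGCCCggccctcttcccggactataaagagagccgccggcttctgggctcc
MT1H: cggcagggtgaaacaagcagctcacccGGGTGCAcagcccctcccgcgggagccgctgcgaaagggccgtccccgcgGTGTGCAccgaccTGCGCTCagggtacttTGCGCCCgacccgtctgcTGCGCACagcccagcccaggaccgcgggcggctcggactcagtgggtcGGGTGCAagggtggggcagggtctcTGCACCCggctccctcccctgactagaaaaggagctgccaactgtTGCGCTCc
The promoter set used held no sequence for MT1A, MT1E, MT1F, MT1G and MT1M, so none is shown.

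In the RefSeq window of 300 bases, which adds the 50 bases after the start, MT2A held 8 MRE cores, 7 of them in the bases printed. MT1H also held 8 and MT1X 4. Of 35116 promoter windows of the same length, 29.6% held at least 1 core, 0.601% held at least 4 and 0.0199% at least 8. The GC box GGGCGG occurred 2 times in MT2A and MT1X and 1 time in MT1H, against 45% of windows with at least 1. The antioxidant element TGACNNNGC occurred 1 time each in MT2A and MT1X (13.3% of windows), where that of MT2A spans bases -104 to -96, and the interferon-stimulated response element in none of the 3 (3.57% of windows). The window of MT2A held 37 CG dinucleotides, the sites DNA methylation uses, more than 88.7% of all windows, while MT1X held 26 and MT1H 25 against a median of 14. MT1H, with as many MRE cores as MT2A, had 0 to 4 reads per library. These are matches of letters and say nothing of what was bound or methylated in the cells.

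In parental cells, DAC raised MT2A 9.57-fold and MT1E 3.11-fold in mean FPKM, while MT1X and MT1F were 1.98-fold and 1.75-fold higher and were not called. MT1G was 3.78-fold higher. Without MT1G, 2 of 4 genes were raised and 0 lowered, against 6.66% of all genes raised and 2.64% lowered. At an adjusted p under 0.05 all 4 were higher, against 33.6% of all genes. Their median log2 fold change was 1.07, and that of all genes tested was 0.06.

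MT2A, the most widely expressed metallothionein of human tissues, stood at 2.52 and 2.45 FPKM with DMSO (73 and 68 reads) and at 25.3 and 22.3 FPKM with DAC (636 and 560 reads). The groups lay far apart relative to their spread. Its log2 fold change was 2.83 (SE 0.10, adjusted p = 2.4e-06 in limma), the largest of the family in this comparison. MT1E, a zinc-binding member of the MT1 group, stood at 4.38 and 2.88 FPKM with DMSO and at 10.9 and 11.7 with DAC. The DMSO libraries of MT1E differed more from each other than the DAC libraries did, and the groups did not overlap. Its log2 fold change was 1.43 (SE 0.17, adjusted p = 0.00043 in limma).

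MT1G, the gene of the family read from the minus strand, was low throughout, at 0.588 and 0.834 FPKM with DMSO (14 and 19 reads) and 2.13 and 3.25 with DAC (44 and 67 reads). Both DAC libraries were above both DMSO libraries. The log2 fold change was 1.10 (SE 0.16), close to the size a call needs, and it fell under that size without replicate 1 of parental DMSO (0.99) or replicate 2 of parental DAC (0.88). The DAC-resistant libraries of MT1G, all listed at 0, enter this fit with no spread, and limma also pools spread over genes. The SE may therefore understate how much the parental libraries vary.

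MT1X, another zinc-binding MT1 gene, had 2.14 and 1.53 FPKM with DMSO and 3.73 and 3.52 with DAC. MT1F, of the same group, had 2.18 and 1.6 FPKM with DMSO and 2.89 and 3.71 with DAC. For both genes the groups did not overlap, as was so, with the DAC libraries above, for 44.9% of all genes tested. The log2 fold changes were 0.72 (SE 0.10, adjusted p = 0.0012 in limma) for MT1X and 0.57 (SE 0.17, adjusted p = 0.024) for MT1F.

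**Figure D1:**
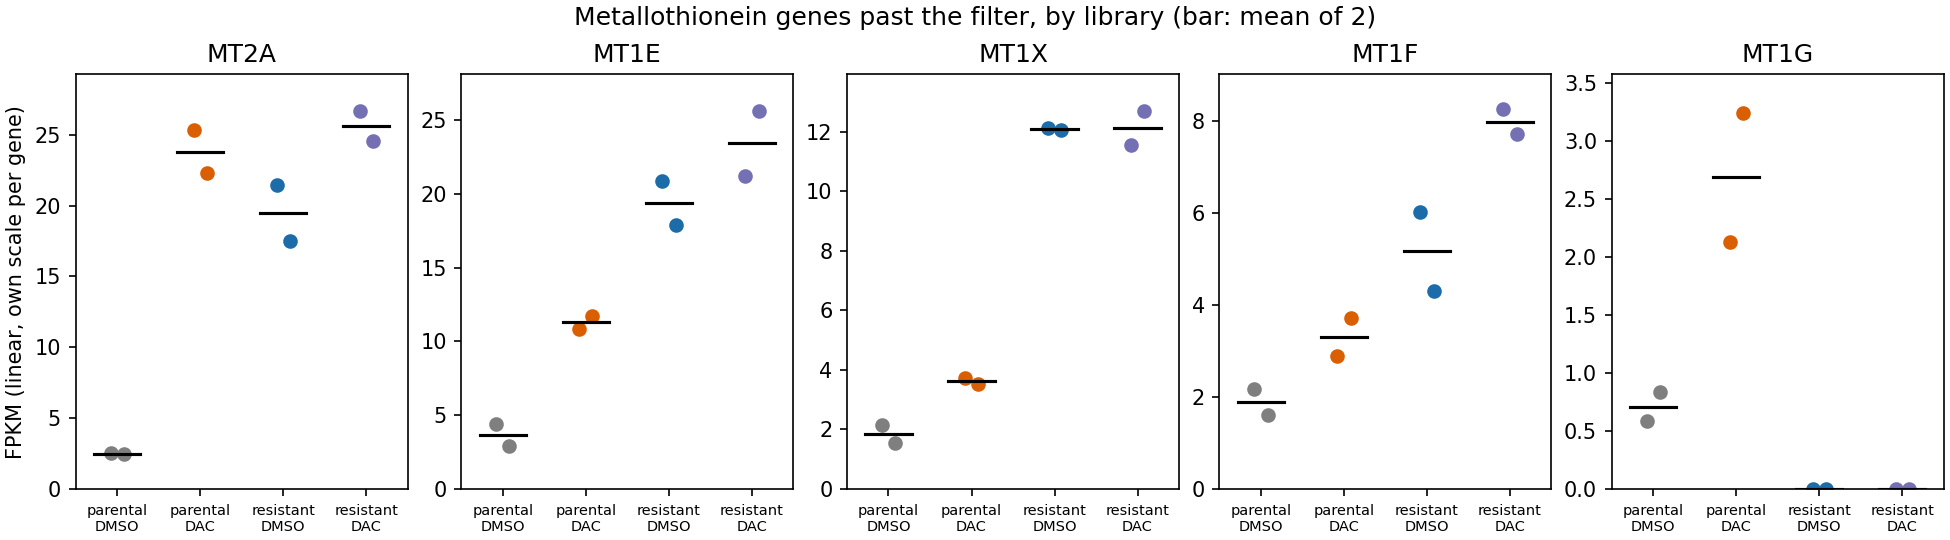
FPKM of the 5 tested metallothionein genes in each of the 8 libraries (points), on a linear axis of its own for each gene, with the mean of the 2 libraries of a group as a black bar. MT2A rises from about 2.49 to 23.8 FPKM with DAC in parental cells and stands at 19.5 in DAC-resistant cells with DMSO, MT1X is highest in the 4 DAC-resistant libraries, and MT1G is listed at 0 there.

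With no drug, DAC-resistant cells had more RNA of 4 metallothionein genes than parental cells and had 0 reads of MT1G. MT2A was 7.84-fold, MT1X 6.60-fold, MT1E 5.34-fold and MT1F 2.73-fold higher in mean FPKM. These are all 4 genes counted, with 0 lowered, against 4.45% of all genes raised and 4.28% lowered. The median log2 fold change of the 4 genes was 2.19 and that of all genes 0.02. This comparison and that of DAC in parental cells share the parental DMSO libraries, so a low value in those libraries enters both.

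MT1X had 12.1 and 12.04 FPKM in DAC-resistant cells with DMSO (661 and 625 reads), against 2.14 and 1.53 in parental cells. The DAC-resistant replicates were nearly equal, and the log2 fold change was 2.22 (SE 0.10, adjusted p = 8.2e-06 in limma). MT2A had 21.5 and 17.5 FPKM there (620 and 481 reads), against 2.52 and 2.45. Its log2 fold change was 2.55 (SE 0.10, adjusted p = 4.5e-06). MT1E had 20.9 and 17.9 FPKM in DAC-resistant cells with DMSO, against 4.38 and 2.88, a log2 fold change of 2.15 (SE 0.17, adjusted p = 6.6e-05). For MT2A, MT1E and MT1X, every DAC-resistant library exceeded every parental DMSO library by more than the replicates differed, and 41.7% of all genes lay above without overlap in this comparison.

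MT1F was at 6.02 and 4.31 FPKM, against 2.18 and 1.6, a log2 fold change of 1.09 (SE 0.17, adjusted p = 0.0016 in limma). It no longer reached the size of a call without replicate 2 of parental DMSO (0.94) or replicate 1 of DAC-resistant DMSO (0.88). MT1G went the other way, from 33 reads over the 2 parental DMSO libraries to 0 reads over the 2 DAC-resistant ones, at least 10.96-fold lower when the DAC-resistant group is set at 3 reads. On the log2(FPKM + 1) scale this came to -0.77 (SE 0.16) and was not called. With a pseudocount of 0.1 it was -3.00, so its size depends on the pseudocount and is given as a description.

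In DAC-resistant cells, DAC took no metallothionein past the thresholds of a call. Here 0 of the 4 genes were raised and 0 lowered in limma, against 0.114% and 0.121% of all genes. At an unadjusted p under 0.05, 2 genes were higher, against 27% of all genes in either direction, and voom on the recovered reads also called 0, against 0.356% of all genes. The median log2 fold change was 0.32, against 0.01 over all genes tested.

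MT2A stood at 26.7 and 24.6 FPKM with DAC, against 21.5 and 17.5 with DMSO, so the groups did not overlap. The log2 fold change was 0.38 (95% interval 0.14 to 0.63, adjusted p = 0.062 in limma). MT1F stood at 8.26 and 7.72 FPKM with DAC, against 6.02 and 4.31, also without overlap. Its log2 fold change of 0.56 (95% interval 0.16 to 0.96, adjusted p = 0.086) was close in size to the 0.57 in parental cells. DAC groups lay above DMSO groups without overlap for 29.9% of all genes in this comparison.

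MT1E stood at 21.2 and 25.6 FPKM with DAC, against 20.9 and 17.9, a log2 fold change of 0.26 (95% interval -0.14 to 0.66, adjusted p = 0.38 in limma). MT1X stood at 11.5 and 12.7 FPKM with DAC, on either side of its DMSO libraries. Its log2 fold change was 0.00 with a 95% interval of -0.25 to 0.25. MT1G had 0 reads in all 4 DAC-resistant libraries.

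**Figure D2:**
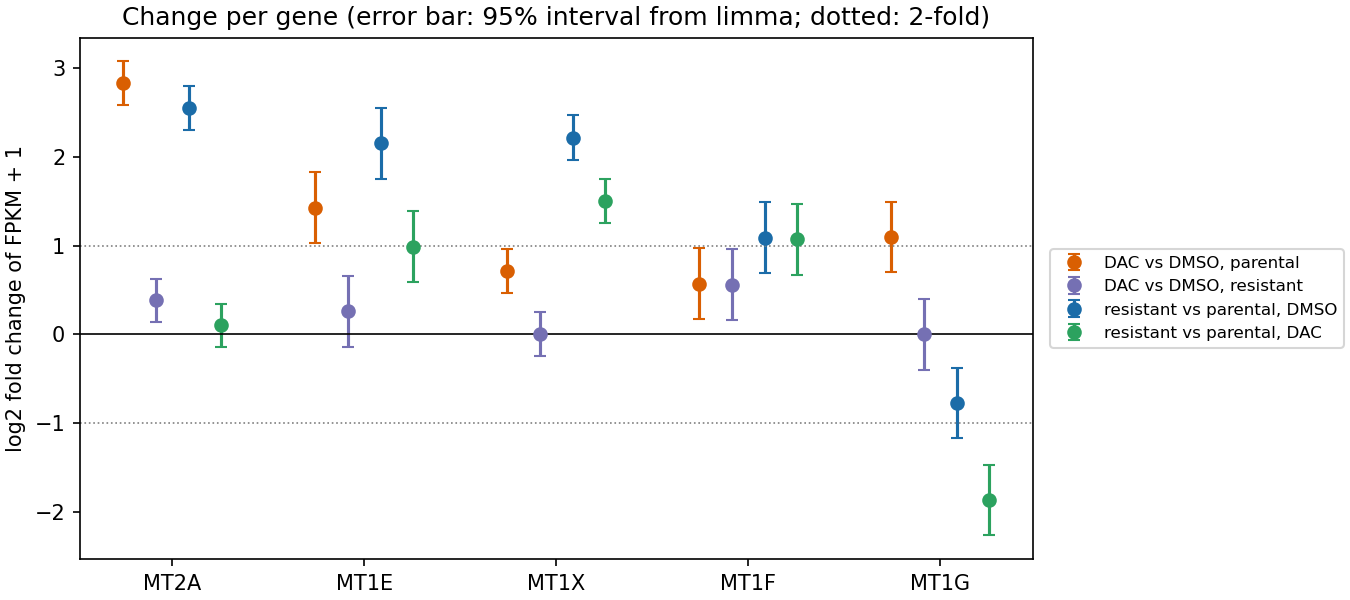
Log2 fold change of FPKM + 1 for each tested gene in 4 comparisons (points) with the 95% interval from limma (bars), and dotted lines at the 2-fold size of a call. The points for DAC in DAC-resistant cells lie between 0.00 and 0.56, while MT2A reaches 2.83 with DAC in parental cells and 2.55 between the lines in DMSO.

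The test of the difference between the DAC effects gave 2 of 4 genes lowered, that is with a smaller effect in DAC-resistant cells, and 0 raised, against 7.16% and 3.46% of all genes. The difference was -2.45 on the log2 scale for MT2A (SE 0.14, adjusted p = 3.4e-05 in limma) and -1.17 for MT1E (SE 0.23, adjusted p = 0.0066). For MT1E it was no longer called without replicate 2 of parental DMSO (-0.93) or replicate 2 of parental DAC (-1.12, adjusted p = 0.034 in limma, unadjusted over 0.01). Without replicate 2 of parental DAC, MT2A was thus the 1 gene still called. For MT1G, at 0 reads in all DAC-resistant libraries, the fitted difference of -1.10 is its parental DAC effect with the sign turned and adds nothing to it. MT1X differed by -0.71 (adjusted p = 0.0072) and was not called. For MT1F the difference was -0.02, with a wide 95% interval of -0.58 to 0.55.

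With both lines under DAC, MT1X and MT1F were higher and MT1G lower in DAC-resistant cells. Without MT1G, 2 of 4 genes (MT1X and MT1F) were raised in DAC-resistant cells and 0 lowered, against 5.29% and 9.17% of all genes. The median log2 fold change was 1.03, against -0.03 over all genes. MT2A was at 26.7 and 24.6 FPKM in DAC-resistant and 25.3 and 22.3 in parental cells. These groups overlapped, with a log2 fold change of 0.10 (95% interval -0.14 to 0.35, adjusted p = 0.40 in limma).

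MT1X was 3.35-fold higher in DAC-resistant cells under DAC, at 11.5 and 12.7 FPKM against 3.73 and 3.52 (log2 fold change 1.5, SE 0.10, adjusted p = 2.5e-05 in limma). MT1F was 2.42-fold higher, at 8.26 and 7.72 FPKM against 2.89 and 3.71 (log2 fold change 1.07, SE 0.17, adjusted p = 0.0013). Without replicate 1 of parental DAC the value of MT1F was 0.93, and 1 gene was left as raised. MT1E was 2.08-fold higher, at 21.2 and 25.6 FPKM against 10.9 and 11.7. Its log2 fold change of 0.99 (SE 0.17, adjusted p = 0.0018) lay just under the size of a call, which it passed with values rescaled to TPM (1.11), a pseudocount of 0.1 (1.04) and voom (1.04). MT1G had 111 reads over the 2 parental libraries with DAC and 0 over the DAC-resistant ones, at least 42.2-fold lower with that group set at 3 reads (log2 fold change -1.87). Parental DAC is the group through which MT1G passed the filter, so this direction was fixed by it.

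By mean FPKM, MT2A ran from parental DMSO over DAC-resistant DMSO and parental DAC to DAC-resistant DAC, with overlap between the last pair. MT1E, MT1X and MT1F ran from parental DMSO over parental DAC and DAC-resistant DMSO to DAC-resistant DAC, with overlap between the DAC-resistant groups for MT1X. MT1G was ordered by line before treatment, with both DAC-resistant groups at 0.

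Added over the 8 genes, the family had 11.9 and 9.30 FPKM in parental cells with DMSO and 45.0 and 45.1 with DAC. In the DAC-resistant line the sum was 60.5 and 51.8 FPKM with DMSO and 67.7 and 70.6 with DAC. Its make-up shifted as well as its sum. MT2A made up 21.2% and 26.4% of the sum in parental cells with DMSO and 56.3% and 49.5% with DAC. In DAC-resistant cells its share was 35.5% and 33.8% with DMSO and 39.4% and 34.8% with DAC. MT1X made up 18.0% and 16.4% in parental cells with DMSO, but 8.29% and 7.81% with DAC, and between 17.04% and 23.2% in the DAC-resistant libraries. Parental cells with DAC thus had a sum in which MT2A weighed most by FPKM. In DAC-resistant cells with DMSO, MT2A and MT1E had near equal shares, that of MT1E being 34.5% in both libraries. These shares depend on annotated lengths, since the exons of MT2A (914 bases) and MT1X (1727 bases) form 1 unbroken block. In reads, DAC-resistant cells with DMSO had 1286 for MT1X, 1259 for MT1E and 1101 for MT2A. Parental cells with DAC had 1196 for MT2A, 653 for MT1E and 344 for MT1X.

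**Figure D3:**
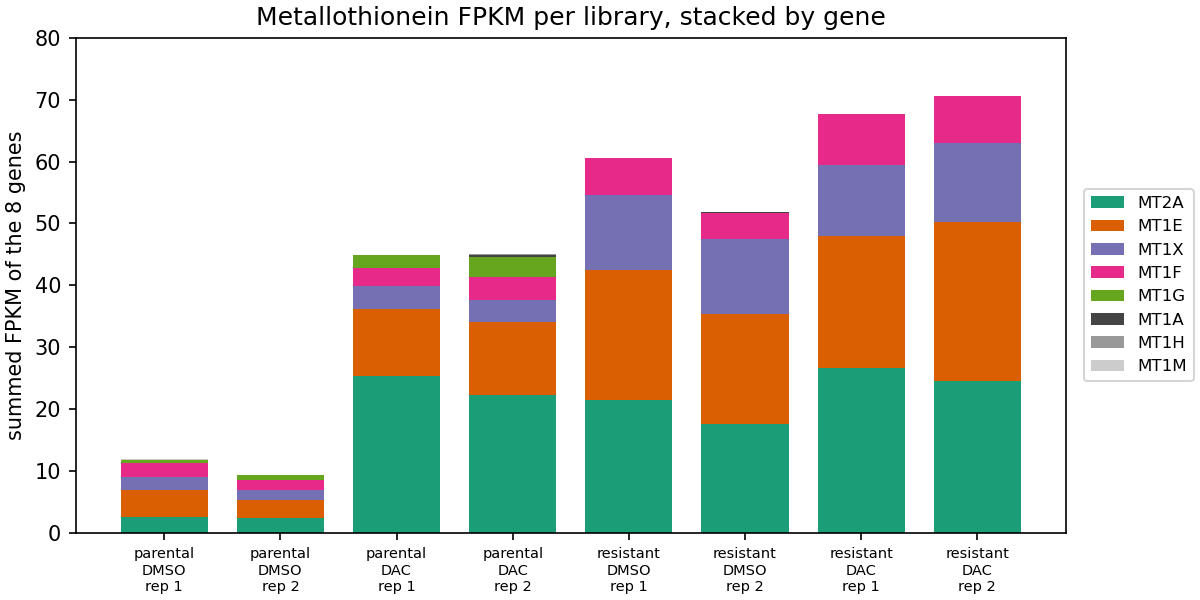
FPKM of the 8 metallothionein genes stacked for each library, with libraries on the x axis and summed FPKM on the y axis from 0. The stack is 9.30 to 11.9 FPKM in parental cells with DMSO, 45.0 to 45.1 with DAC and 51.8 to 70.6 in the DAC-resistant libraries, and the slice of MT1G is seen only in parental cells.

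The 3 genes under the filter were close to silent at this depth. MT1H, next to MT1G on the chromosome, had 1 and 4 reads in parental cells with DAC and 0 in the other libraries. MT1A, a metal-inducible member, had 4 reads in replicate 2 of parental DAC and 1 read in replicate 2 of DAC-resistant DMSO. MT1M, another MT1 gene, had 1 read, in replicate 1 of parental DMSO. In limma without the filter, 0 of the 3 were called in any comparison, so 0 of 3 is near the share of the 39592 genes of that fit, of which 3.53% were called with DAC in parental and 0.0859% in DAC-resistant cells, 3.24% between the lines in DMSO, 5.45% under DAC and 4.05% in the difference of the DAC effects. Before adjustment MT1H was under 0.05 with DAC in parental cells and between the lines under DAC, as 35.1% and 39% of all genes were. In the other comparisons 0 of the 3 were, against 12.2% (DAC-resistant cells), 30.3% (DMSO) and 29.8% (the difference) of all genes. With DAC in parental cells the log2 fold change was 0.23 for MT1A (adjusted p = 0.33) and 0.17 for MT1H (adjusted p = 0.11). These genes had 0 to 4 reads per library, and the size of difference that could be detected at this depth was not tested.

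Of 13 other metallothionein genes and pseudogenes, 6 were matched by symbol and the others by gene ID through GENCODE, and 1 passed the filter. This was MT2P1 (ENSG00000162840), a processed pseudogene on another chromosome, which had 0 reads in both parental DMSO libraries, 22 and 16 in parental DAC, 15 and 6 in DAC-resistant DMSO, and 18 and 8 in DAC-resistant DAC. It passed only through the groups other than parental DMSO, so a fold against that group is not given. MT2A and MT1E share 50-base windows with it, and its count is uncertain to that extent. MT1HL1, a gene like MT1H on another chromosome, had 4 and 7 reads in parental cells with DAC and 0 elsewhere. MT1L had 8 and 3 reads there and 0 to 2 elsewhere. MT3, the brain member, had 3, 4 and 5 reads in replicate 1 of parental DMSO, DAC-resistant DMSO and DAC-resistant DAC and 0 elsewhere, and MT1B, MT4, MT1JP, MT1CP, MT1DP, MT1IP and MT1P1 were listed at 0. MT1XP1 had 0 to 4 reads per library and MT1P3 1 read in all. MT1H shares 1.39% of its transcript windows of 100 bases with MT1HL1, and between 1.24% (MT1F) and 18.7% (MT1X) of windows of 50 bases of a member occur in transcripts of other genes. MT1X shares 11.6% of its 100-base windows with the gene ENSG00000259827, and MT1G 16.4% of its 50-base windows with other metallothioneins. To that extent the counts of these genes are uncertain, and counts on overlapping or antisense genes are too, since the use of strand in counting was not given in the sources used here.

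Of 10 genes beside the cluster, 7 were tested, and 0 were called in limma with DAC in either line or between the lines in DMSO. At an unadjusted p under 0.05 these comparisons had 5 (parental), 3 (DAC-resistant) and 6 of the 7, and voom called 1, 0 and 0 (14.9%, 0.356% and 15.9% of all genes). Over all genes 9.31%, 0.235% and 8.73% were called and 62.5%, 27% and 61.9% were under 0.05, so 0 of 7 is near the share of all genes. Their median was -0.15 on the log2 scale for DAC in parental cells and 0.21 between the lines in DMSO. The nearest tested neighbours were BBS2, a gene of the cilium, whose start is 142.9 kb before that of MT2A, and NUP93, a nuclear pore gene, 121.5 kb after it. With DAC in parental cells BBS2 stood at 1.54 and 1.40 FPKM against 2.48 and 2.69 (log2 fold change -0.54, adjusted p = 0.00085 in limma). NUP93 stood at 5.92 and 6.40 FPKM against 6.88 and 6.97 (-0.15, adjusted p = 0.054). Between the lines under DAC, 1 of the 7 was raised and 1 lowered in limma, against 5.29% and 9.17% of all genes. There 6 of the 7 had an unadjusted p under 0.05 (69.9% of all genes) and voom called 3 (22.6%). The gene raised in DAC-resistant cells was HERPUD1, an endoplasmic reticulum stress gene (1.16), and the lowered gene was NLRC5, an immune regulator (-1.09). NLRC5 also had the smaller DAC effect in DAC-resistant cells (-1.16), as the 1 gene of the 7 lowered in that test, against 7.16% of all genes.

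**Figure D4:**
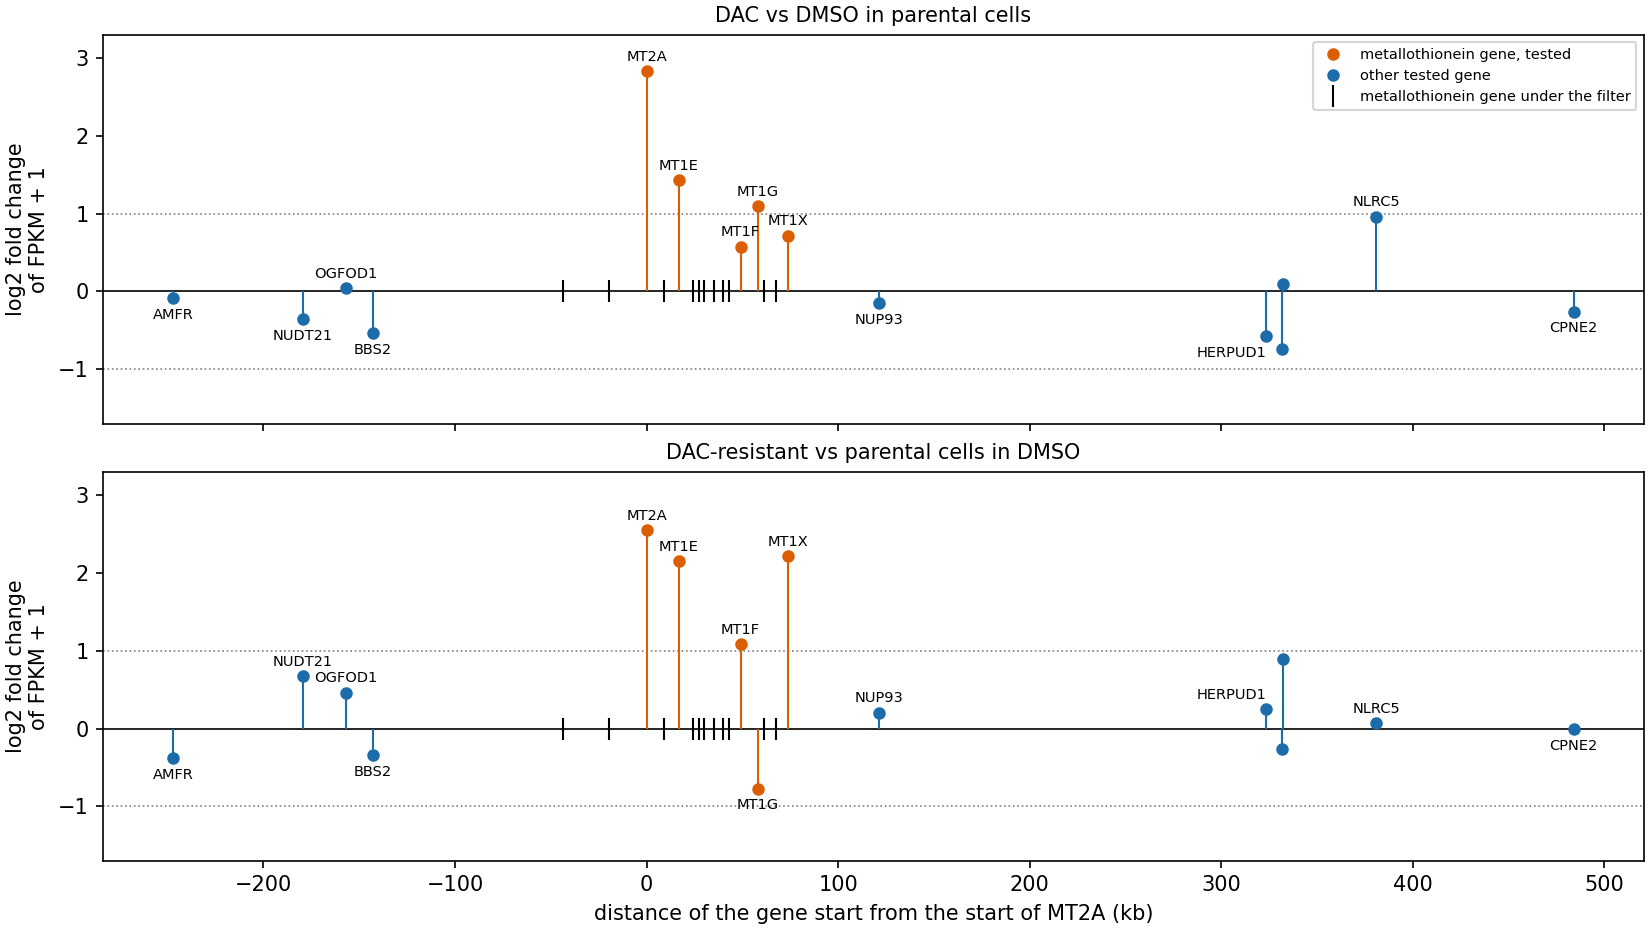
Log2 fold change of FPKM + 1 (y axis) along chromosome 16 against the distance of each gene's start from that of MT2A in kb (x axis), for DAC in parental cells (top) and for DAC-resistant against parental cells in DMSO (bottom), with dotted lines at the 2-fold size of a call and ticks for metallothionein genes under the filter. The tested metallothionein genes lie within 73.9 kb, 4 of them past the upper dotted line in the bottom panel, while BBS2 and NUP93 at -0.54 and -0.15 in the top panel do not pass either line.

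Of 34 such genes (a sensor, zinc and copper transporters, copper chaperones, SOD1 and HMOX1), 25 were tested. With DAC in parental cells 2 were raised and 0 lowered, in DAC-resistant cells 0 and 0, between the lines in DMSO 1 and 0, and between the lines under DAC 0 and 1. Of all genes, 6.66% were raised and 2.64% lowered with DAC in parental cells, and 0.114% and 0.121% in DAC-resistant cells. Between the lines these shares were 4.45% and 4.28% in DMSO and 5.29% and 9.17% under DAC. The 0 and 0 in DAC-resistant cells is thus near the share of all genes. In these 4 comparisons 19, 12, 14 and 16 of the 25 had an unadjusted p under 0.05 in limma. Of all genes 62.5%, 27%, 61.9% and 69.9% did. Voom called 2, 0, 1 and 3 of the 25 in these 4 comparisons, against 14.9%, 0.356%, 15.9% and 22.6% of all genes. Medians of their log2 fold changes were 0.21, -0.01, 0.05 and -0.10 in these comparisons.

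MTF1, the metal-sensing factor, stood at 5.92 and 5.69 FPKM in parental cells with DMSO and at 10.6 and 10.8 with DAC. The DAC-resistant line had 6.64 and 7.10 FPKM with DMSO and 6.77 and 6.90 with DAC. The parental DAC libraries were the highest, with a log2 fold change of 0.78 that did not reach the size of a call (adjusted p = 2.2e-05 in limma), and the lines differed in DMSO by 0.21 (adjusted p = 0.0086). SLC30A1, the zinc exporter of the cell membrane and a target of MTF1, was also highest there, from 11.6 and 10.5 FPKM to 20.7 and 20.0 with DAC in parental cells (0.83, adjusted p = 4.6e-05). In DAC-resistant cells it stood at 13.3 and 14.2 FPKM with DMSO, 0.30 above parental cells (adjusted p = 0.0052), and at 14.1 and 15.0 with DAC.

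HMOX1, the heme-degrading enzyme of the oxidative stress response, was raised with DAC in parental cells from 1.64 and 1.44 to 20.6 and 20.3 FPKM (log2 fold change 3.08, adjusted p = 2.6e-06 in limma). The DAC-resistant line had 0.907 and 0.981 FPKM with DMSO and 0.734 and 0.382 with DAC, below every parental library. Against parental cells under DAC this was a log2 fold change of -3.79 (adjusted p = 6.9e-07), where MT2A differed by 0.10. SLC39A13, a zinc transporter of internal membranes, was raised with DAC in parental cells from 2.20 and 2.58 to 7.97 and 6.91 FPKM (1.32, adjusted p = 6.6e-05). SLC39A10, a zinc importer, was raised in DAC-resistant cells with DMSO to 20.4 and 20.9 from 7.32 and 7.49 FPKM (1.36, adjusted p = 9.6e-07). HMOX1 and SLC39A13 also had lower DAC effects in DAC-resistant cells, by -3.41 and -1.59. In that test 2 of the 25 genes were lowered and 0 raised, against 7.16% and 3.46% of all genes, so 2 of 25 is near the share of all genes.

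Of 7 glucocorticoid-responsive genes, 6 were tested, and 1 was raised and 1 lowered with DAC in parental cells, against 6.66% and 2.64% of all genes. DUSP1, a phosphatase that damps MAP kinases, went from 1.11 and 1.2 to 7.93 and 8.55 FPKM (log2 fold change 2.1, adjusted p = 2.5e-05 in limma). TSC22D3, an anti-inflammatory glucocorticoid target, fell from 13.6 and 12.6 to 5.69 and 5.84 FPKM (-1.06, adjusted p = 7e-06). In limma 0 of the 6 were called between the lines in DMSO or with DAC in DAC-resistant cells. There 5 and 4 had an unadjusted p under 0.05 (61.9% and 27% of all genes), and voom called 0 and 0 (15.9% and 0.356% of all genes). With DAC the median log2 fold change of the 6 was 0.03 in parental and 0.13 in DAC-resistant cells, against 0.06 and 0.01 over all genes. Between the lines the median was 0.34 in DMSO and 0.26 under DAC, against 0.02 and -0.03. Under DAC, TSC22D3 was higher (2.08) and DUSP1 lower (-1.84) in DAC-resistant cells.

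Over the 8 libraries, genes whose log2 levels followed the mean of the 5 tested metallothioneins, MT1G among them, closely, of 3602 genes that varied by at least 1 log2 unit between groups, included ENSG00000230829 (Pearson r = 0.9934), TNF (0.9914), RHOB (0.9913) and PPP1R27 (0.9905). Without MT1G in the mean, r was 0.9694, 0.9537, 0.9611 and 0.9488 for these genes, at ranks 74, 129, 101 and 146 of the 3602, so their closeness rests in part on MT1G. These genes were chosen for following that mean, so their group levels are a description with no p, and the 8 points are 4 groups of 2 libraries that share depth and scaling. TNF, an inflammatory cytokine, had group means of 8.06, 37.1, 35.2 and 50.5 FPKM in parental DMSO, parental DAC, DAC-resistant DMSO and DAC-resistant DAC. RHOB, a small GTPase, had 6.63, 12.8, 13.4 and 14.4 FPKM in the same order.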

How the data were processed

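Libraries were prepared from THP-1 RNA with the KAPA mRNA HyperPrep kit. Per the submitters' processing notes, reads were handled with FastQC, Cutadapt 1.9.1, HISAT2 2.1.0 (hg38), SAMtools 1.6 and HTSeq 0.13.5. The authors deposited FPKM per gene and library, multiplied by 1000, with 60664 genes and 1264 repeat families (not used here), and all 8 columns were matched to samples by name, with 0 columns left over. Values were divided by 1000 and fitted as 4 group means with limma 3.58.1 in R 4.3.3 (variance trend, pseudocount 1, at least 1 FPKM in at least 2 libraries, prior degrees of freedom 2.50 beside 4 residual, two-sided). Reads were recovered with GENCODE release 44 exon lengths, by which 87.1% of values above 0 were whole within 0.02 reads. Another 3123 genes were solved from ratios between libraries, 1485 genes are approximate and 23 unsolved, so the totals of gene reads are estimates. All 8 metallothionein genes were solved by length. The script was tested on simulated data.

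The members, gene lists, motifs and the thresholds were chosen with earlier results of these data known. Named genes are the members, other metallothioneins above 0, list genes called in a comparison, MTF1, SLC30A1, the nearest neighbours and the 5 genes most alike over 8 libraries, of which 1 is not reported here. Alternatives were a pseudocount of 0.1, no filter, TPM, upper-quartile scaling, a replicate block, leaving out each library in turn, and voom on the reads. Figures were drawn with matplotlib 3.10.9.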

Additional observations from a re-analysis of the deposited data

Results flagged for a closer look

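For MT2A and MT1E the effect of DAC differed between parental and DAC-resistant cells by a direct test of that difference in limma. It was -2.45 on the log2 scale for MT2A (adjusted p = 3.4e-05), where both DAC-resistant DMSO libraries already stood at 17.5 and 21.5 FPKM. It was -1.17 for MT1E (adjusted p = 0.0066), and 7.16% of all genes had a lowered DAC effect by the same rule. The MT1E call was lost without replicate 2 of parental DMSO (-0.93) or replicate 2 of parental DAC (-1.12, unadjusted p = 0.013 in limma, adjusted p = 0.034). MT1G met the same rule at -1.10, but its DAC-resistant libraries are all listed at 0, so this is its parental DAC effect with the sign turned and no further difference.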

How the results depend on the processing

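Of the member fold changes recomputed under the alternatives, 323 kept their direction and their side of the threshold, 7 passed it newly and 11 no longer passed it. Another 9 that were not called turned their sign near 0, namely MT1F in the difference of the DAC effects (6 values, 0.03 to 0.19) and MT1X with DAC in DAC-resistant cells (3 values, -0.06 to -0.00). Many of these fold changes could not move in size, so their number overstates how far the results were tried. Dropping the filter, the replicate block, and leaving out a library outside a comparison all leave its log2 fold changes as they were. The fold changes of MT1G are included. Of the counts of members called, which here include MT1G, 136 kept their value within 1.5 times and 4 moved. Members lowered between the lines in DMSO went from 0 to 1 with a pseudocount of 0.1 and with voom, through MT1G (-3.00 and -5.06). The size of that change against 0 reads depends on the setting, so it is given as a description. Leaving out a library, members raised between the lines under DAC ranged from 1 to 3, and members lowered in the difference of the DAC effects from 1 to 3. The cause was not tested.

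All genes called numbered 1387 with DAC in parental cells, 35 with DAC in DAC-resistant cells, 1300 between the lines in DMSO and 2154 under DAC. With a pseudocount of 0.1 these were 2097, 107, 2263 and 3249, and with voom 2215, 53, 2374 and 3360. Without replicate 1 of DAC-resistant DAC, 53 genes were called with DAC in DAC-resistant cells.

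With the replicate number as a block, 2 of the 4 genes other than MT1G were raised with DAC in parental cells and 4 between the lines in DMSO, as without it, and no member call changed. MT2A with DAC in DAC-resistant cells had an adjusted p of 0.03 with this replicate block and 0.062 without. Deviations of same-numbered samples had correlations of -0.02 to 0.02, so no effect shared by replicate number was seen. This cannot show whether same-numbered samples were handled together.

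With 2 libraries a group, changes of MT1G and of the 3 genes under the filter are limited by their few reads, and the p-values rest on spread shared across genes.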
